A study of Mus musculus with 12 samples.

Results

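The genes described here are 10 mouse genes of replication licensing: Mcm2, Mcm3, Mcm4, Mcm5, Mcm6, Mcm7, Mcm10, Cdc6, Cdt1 and Gmnn. They were taken by name, from the gene name that each array file gives to a probe, so the rule used no measured value. The array held 13 probes for them among 41174 gene probes, and 12 of the 13 passed the filter on dim probes, as did 30838 of all probes. With 1 probe standing for each gene, all 10 were tested among 20399 genes.

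The study set RNA of ShcA-null mouse mammary tumors beside RNA pooled from NIC mammary tumors, on two-colour Agilent arrays of the mouse genome. ShcA, the product of Shc1, is an adaptor that couples receptor tyrosine kinases to Ras signalling, and NIC tumors come from a transgene in which the MMTV promoter drives activated Neu (ErbB2) and Cre recombinase together in the mammary epithelium. The tumors labelled ShcA-null carry the same transgene, per the series' design text, which calls them NIC tumors. There were 12 arrays of 8 ShcA-null tumors, and each array held 1 tumor's RNA beside the same pool. On the first array of each tumor the tumor RNA carried Cy5, and tumors 1 to 4 had a further array, called swapped here, on which the tumor RNA carried Cy3. All values are log2 ratios of ShcA-null tumor over pool, so a positive value means more RNA in the tumor. The labels do not give the age or strain of the mice, the number of tumors in the pool, or whether each tumor came from its own animal, so each p-value reflects only how these 8 samples varied. The pool is 1 control sample, and the spread between NIC tumors does not enter any test.

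Licensing prepares an origin of replication to fire in the coming S phase. The origin recognition complex marks the site, Cdc6 and Cdt1 join it, and together they load the ring-shaped MCM2-7 helicase onto DNA in G1. Geminin, the product of Gmnn, binds Cdt1 after S phase has begun and prevents a further round of loading. The RNAs of these genes are made mostly in dividing cells, many of them under E2F transcription factors, and MCM proteins are in common use as markers of cells in cycle.

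Several arrays stood apart. Over the 30838 kept probes, the swapped array labelled tumor 1 correlated best with the first array of tumor 1 (r = 0.44). The swapped array labelled tumor 2 correlated at 0.142 with the first array of tumor 2 and at 0.817 with that of tumor 3. The one labelled tumor 3 correlated at 0.134 with its own first array and at 0.392 with that of tumor 4, and the one labelled tumor 4 at 0.294 with its own and at 0.681 with that of tumor 8. Which tumor was on these 3 swapped arrays is therefore in doubt, and results are given below with the swapped arrays averaged as labelled, left out, or paired by best match. The first array of tumor 1 had outlier flags on 13.7% of its gene spots, against 0.47% to 5.55% on the other arrays. The first arrays of tumors 6 and 7 had the widest spread over all genes, with SDs of 1.23 and 1.02 against 0.57 to 0.99 on the other first arrays. The log2 ratio was below -2 for 9.74% of genes in tumor 6 and for 5.11% in tumor 7, while the other 6 tumors had 0.36% to 1.75% of genes there. Of 113 genes on the replication and cell cycle lists, tumor 6 had 13 below -2, tumor 7 had 6 and the other tumors had 0. Shc1 itself averaged 0.12 ± 0.65 (SD, n = 8, limma adjusted p = 0.716), and its lowest ratios were -2.05 on the first array of tumor 3 and -2.22 on the swapped array labelled tumor 2. Its RNA was therefore not evenly low across the tumors. Whole tumor RNA also holds cells outside the epithelium in which Cre is driven. The labels do not say which part of the gene was deleted, so this ratio does not test the label. Epithelial markers were present, with 3 of 10 tested called higher and none lower.

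Both genes with more than 1 kept probe, Mcm3 and Cdc6, had probes that disagreed most in tumor 6. Outside tumor 6, the other probe minus the one that stood for the gene was -0.28 to 0.16 for Mcm3. For Cdc6 it was -0.98 to 0.04, so its probes also differed in other tumors. The 4 oligonucleotides of these genes are shown in full. They are the array's 60-base probes from the files, 5′ to 3′ in lower case, with positions on mm7. For Mcm3, the probe that stood for the gene, A_51_P324934, lies at chr1:20998636-20998695 and its other probe, A_52_P364776, at chr1:21000880-21001396, both on the minus strand. The interval of A_52_P364776 spans 517 bases for 60 bases of probe. For Cdc6, A_52_P371108, which stood for the gene, lies at chr11:99030298-99030357 and A_52_P219473 at chr11:99032894-99032953, both on the plus strand.
Mcm3 A_51_P324934: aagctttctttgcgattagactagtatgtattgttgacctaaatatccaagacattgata
Mcm3 A_52_P364776: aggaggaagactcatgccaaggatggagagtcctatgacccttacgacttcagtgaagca
Cdc6 A_52_P371108: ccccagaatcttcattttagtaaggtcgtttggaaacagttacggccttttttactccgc
Cdc6 A_52_P219473: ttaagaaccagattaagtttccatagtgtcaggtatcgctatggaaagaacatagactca
The other 8 genes were each read from 1 kept probe. A second Mcm4 probe, A_52_P231545, cleared background on 1 of 12 arrays in either RNA and was not kept. For the 12 kept probes, tumor and pool RNA both cleared background on 12 of 12 arrays.

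Over the 8 ShcA-null tumors, 6 of the 10 licensing genes were higher than the pool, and none was lower. Mcm2, Mcm3, Mcm4, Mcm5, Mcm10 and Cdt1 passed a limma adjusted p of 0.05, with mean log2 ratios of 0.32 to 0.67. Cdc6, Gmnn, Mcm6 and Mcm7 had means of 0.28 to 0.37 and did not pass. Among all 20399 genes tested, 6.58% were called higher and 10.6% lower, and 6 of 10 stands well above the share called higher. The 10 genes were chosen with earlier results of these data known, so the comparison is a description only. The median of the 10 mean log2 ratios was 0.38, against -0.02 for all genes. In whole tumor RNA, more cells that express a gene and more RNA per cell cannot be told apart.

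**Figure D1:**
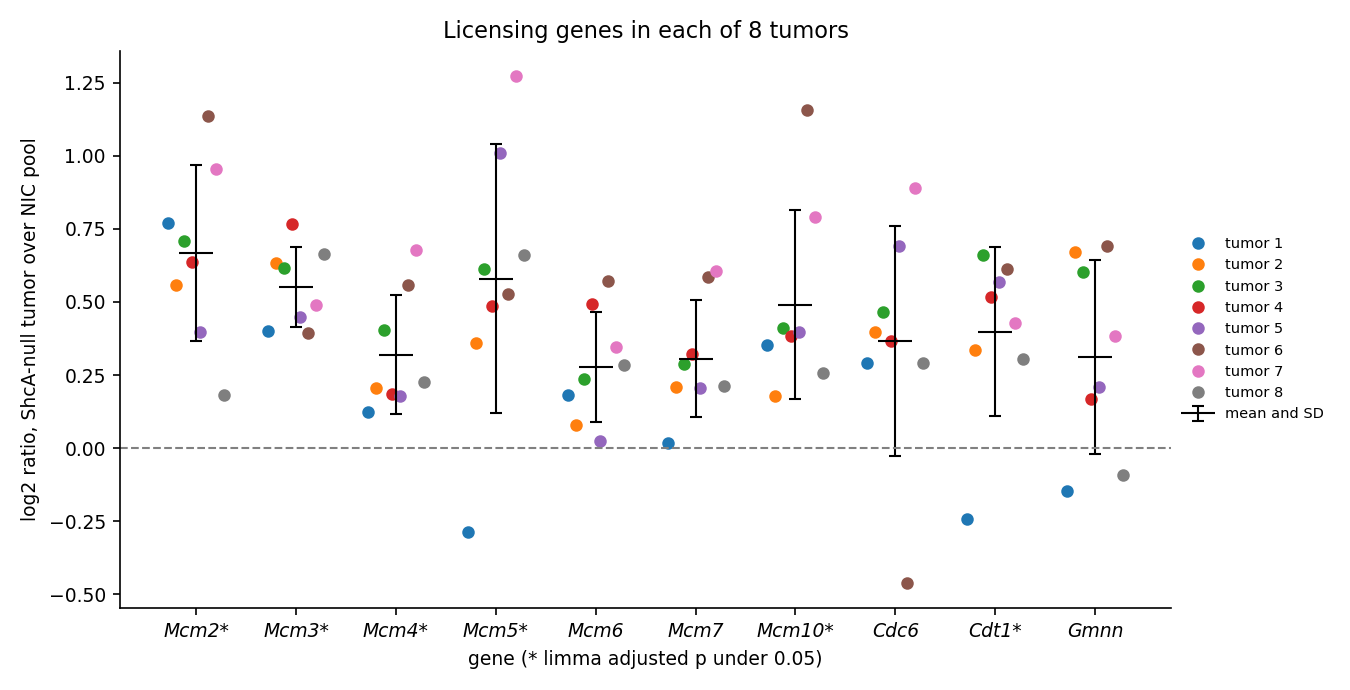
Each point is the log2 ratio of ShcA-null tumor over NIC pool in 1 of 8 tumors (vertical axis) for each of the 10 licensing genes (horizontal axis), with the mean and SD in black and a star on the genes called by limma. All 8 points lie above 0 for Mcm2, Mcm3, Mcm4, Mcm6, Mcm7 and Mcm10, and tumors 1, 6 and 8 supply the points below 0 for the other 4 genes.

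The MCM2-7 ring is built from 6 related subunits, each present once. Mcm2, the subunit that also handles histones at the fork, had the highest mean. Its log2 ratio was lowest in tumor 8 (0.18), highest in tumor 6 (1.13) and had a median of 0.67. Every tumor was above the pool, by amounts that differed widely. The mean was 0.67 ± 0.30 (SD, n = 8), a 1.59-fold difference with a limma adjusted p of 0.00633. The exact two-sided sign-flip p was 0.0078, the smallest that 8 tumors can give. In the authors' deposited value table the mean was 0.70 (limma adjusted p = 0.00941).

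Mcm3, the subunit that sits beside Mcm5 in the ring, was the most even of the 10 genes. Its log2 ratio ran between 0.39 in tumor 6 and 0.77 in tumor 4, with a median of 0.55. The mean was 0.55 ± 0.14 (SD, n = 8; limma adjusted p = 0.0037), the smallest SD of the 10 genes. Its other probe, A_52_P364776, ran between 0.30 and 0.80 in 7 tumors but was -2.28 in tumor 6. That 1 value brought the probe's mean down to 0.17 ± 1.01 (adjusted p = 0.738 in a limma fit over probes, n = 8). Without tumor 6 the probe averaged 0.52 ± 0.19, close to the brighter probe. With both probes averaged over the 8 tumors, Mcm3 was at 0.36 and was not called (limma adjusted p = 0.188, n = 8). The spot had no outlier flag, and the authors' deposited value table also lists it low in tumor 6, at -1.79.

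**Figure D2:**
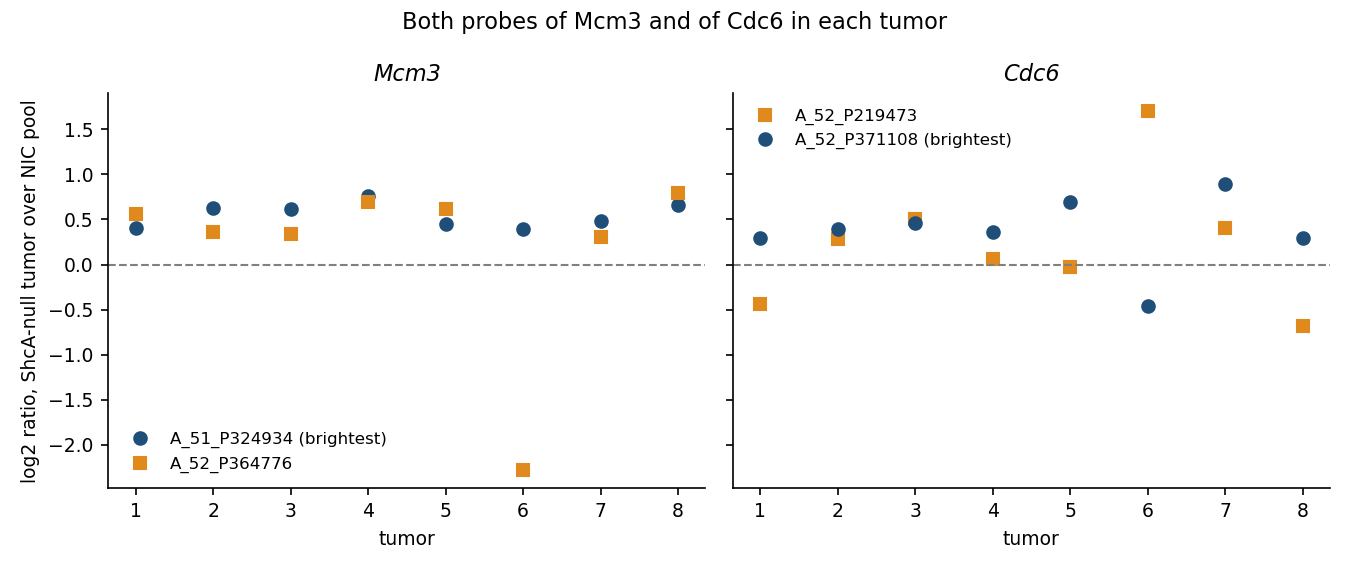
Log2 ratio of ShcA-null tumor over NIC pool (vertical axis) in each of 8 tumors (horizontal axis) for both kept probes of Mcm3 (left) and of Cdc6 (right), where circles mark the probe that stood for the gene. The probes of each gene differ most in tumor 6, where Mcm3 reads 0.39 and -2.28 and Cdc6 reads -0.46 and 1.70.

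Mcm5 had the second highest mean but also, with the arrays of each tumor averaged, the widest spread of the 10 genes. Its log2 ratio was -0.29 in tumor 1, and the other 7 tumors ran between 0.36 and 1.27. The median of all 8 was 0.57. Tumors 5 and 7 were the high ones in these averages, in which tumors 2 to 4 mix both dye orientations. On first arrays alone tumor 4 was highest (1.36). The range there, 0.53 to 1.36, was narrower than that of Cdc6 (-0.46 to 0.94). The mean of Mcm5 over the 8 tumors was 0.58 ± 0.46 (SD, n = 8; limma adjusted p = 0.0331; exact sign-flip p = 0.0156). The value in tumor 1 rests on its swapped array alone, since the spot on the first array was flagged as an outlier and left out. The call was lost when any 1 of tumors 2, 3, 4, 5, 7 and 8 was left out, with means of 0.48 to 0.70 over all 8 omissions and adjusted p up to 0.0751.

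The dye orientation moved with the Mcm5 ratio. On the first arrays it lay between 0.53 and 1.36 over the 7 tumors measured, and on the 4 swapped arrays between -0.38 and 0.25. These ranges did not overlap, for Mcm5 alone among the 10 genes, while the same was true of 9.82% of 19288 genes compared. Mcm3 overlapped only narrowly, with 0.14 to 0.66 on first arrays and 0.65 to 0.96 on swapped arrays. Its means there were 0.46 and 0.79, and those of Mcm2 were 0.57 and 0.86. Mcm10 (0.57 and 0.17) and Cdc6 (0.51 and 0.09) averaged less on swapped arrays. With the first arrays only, Mcm5 averaged 0.93 (limma adjusted p = 0.00277). In a fit of all 12 arrays that included the dye and assigned each swapped array to its best match, it averaged 0.39 (adjusted p = 0.0676). The same fit with the swapped arrays as labelled gave 0.42 and kept the call (limma adjusted p = 0.0138). Swapped arrays were also on a slide of their own, so dye and slide cannot be told apart.

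**Figure D3:**
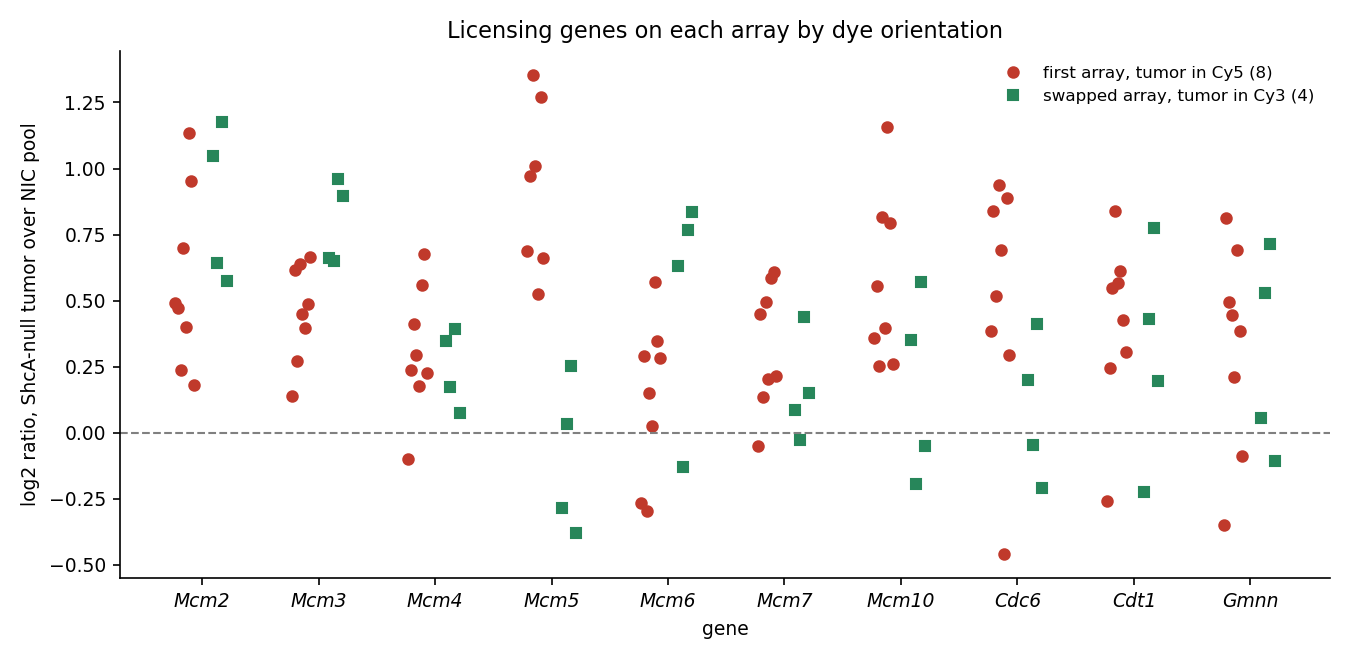
Log2 ratio of ShcA-null tumor over NIC pool (vertical axis) on each array for the 10 genes (horizontal axis), with first arrays as circles and swapped arrays as squares. Mcm5 is split into ranges of 0.53 to 1.36 and -0.38 to 0.25, while the ranges of the other 9 genes overlap. Those of Mcm3 overlap only between 0.65 and 0.66.

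Mcm4, Mcm6 and Mcm7 form the part of the ring that by itself unwinds DNA in vitro. Mcm4 lay between 0.12 in tumor 1 and 0.68 in tumor 7, with a median of 0.21. Its mean was 0.32 ± 0.20 (SD, n = 8; limma adjusted p = 0.0464). This call did not hold when any 1 of the 8 tumors was left out, with means of 0.27 to 0.35 and adjusted p of 0.054 to 0.105.

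Mcm7 lay between 0.02 in tumor 1 and 0.61 in tumor 7, with a median of 0.25. Its mean was 0.31 ± 0.20 (limma adjusted p = 0.0522, n = 8). Mcm6 lay between 0.03 in tumor 5 and 0.57 in tumor 6, with a median of 0.26. Its mean was 0.28 ± 0.19 (limma adjusted p = 0.0668, n = 8). Both were above the pool in 8 of 8 tumors without passing the test. On the 4 swapped arrays Mcm6 averaged 0.53, against 0.14 on the first arrays. Mcm4 and Mcm7 tracked each other over the tumors (r = 0.91, n = 8, from the same arrays).

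Mcm10, which is no part of the ring and joins it when the helicase is switched on, was called higher. Its log2 ratio was lowest in tumor 2 (0.18), highest in tumor 6 (1.16) and had a median of 0.39. With arrays averaged as labelled, tumors 6 and 7 stood above the other 6, which were at 0.41 or below. On first arrays alone tumor 4 was at 0.82, above tumor 7 at 0.79, and tumor 2 was at 0.55. The mean was 0.49 ± 0.32 (SD, n = 8; limma adjusted p = 0.024), a 1.41-fold difference. The call was lost without tumor 4 or tumor 7, at an adjusted p of up to 0.0559. In all, 6 of the genes, Mcm2, Mcm3, Mcm4, Mcm6, Mcm7 and Mcm10, were above the pool in 8 of 8 tumors, as were 5.23% of 18841 genes with a value in every tumor.

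Cdt1 brings the helicase to the origin and is the protein that geminin blocks. Its log2 ratio was -0.24 in tumor 1, and the other 7 tumors ran between 0.31 and 0.66. The median of all 8 was 0.47. Both arrays labelled tumor 1 put it below the pool, at -0.26 and -0.23. The mean was 0.40 ± 0.29 (SD, n = 8; limma adjusted p = 0.0398; exact sign-flip p = 0.0156). Without tumor 1 the mean was 0.49 (adjusted p = 0.0136), and the call was lost when any other tumor was left out, with adjusted p up to 0.10.

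Cdc6, the ATPase that works with Cdt1 in loading, did not pass the test. Tumor 6 was at -0.46 while the rest ran between 0.29 and 0.89. The median of all 8 was 0.38. The mean was 0.37 ± 0.39 (SD, n = 8; limma adjusted p = 0.0993). Without tumor 6 the mean was 0.48 and the gene was called (limma adjusted p = 0.0113). The other Cdc6 probe ran the opposite way in that tumor, at 1.70. In the other 7 tumors it averaged 0.02 ± 0.44, so the probes of Cdc6 gave different accounts of the gene and its ratio is uncertain. On the authors' deposited value table the low value of tumor 6 was -0.04 and the mean was 0.43 (limma adjusted p = 0.0589).

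Gmnn, the inhibitor of licensing, lay between -0.15 in tumor 1 and 0.69 in tumor 6, with a median of 0.30. Tumors 2, 3 and 6 were at 0.60 or above, and tumors 1 and 8 were below the pool. The mean was 0.31 ± 0.33 (SD, n = 8; limma adjusted p = 0.111). Gmnn minus Cdt1 averaged -0.09 ± 0.26 (SD, n = 8) on the log2 scale, with Gmnn the higher of the pair in 3 of 8 tumors. The exact two-sided sign-flip p of that difference was 0.406. A shift in the balance of inhibitor and target was therefore not resolved from the spread between tumors.

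The order of the 10 mean log2 ratios was Mcm2, Mcm5, Mcm3, Mcm10, Cdt1, Cdc6, Mcm4, Gmnn, Mcm7 and Mcm6. Neighbours in this order differed by 0.01 to 0.09, less than the SD of each difference, which was 0.16 to 0.56. A neighbour pair kept its order in 3 to 7 of 8 tumors, so no step in the ranking was set apart by the tumors. Among the 45 pairs of genes, 32 correlated above 0 over the 8 tumors, with a median r of 0.30 and a range of -0.56 to 0.91. Mcm3 ran against Mcm10 (r = -0.56) and Mcm2 (r = -0.51), and Mcm6 against Cdc6 (r = -0.56).

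By tumor, the median of the 10 genes was above the pool in all 8. It was lowest in tumor 1 (0.15) and tumor 8 (0.27), and highest in tumor 7 (0.64) and tumor 6 (0.58). Tumor 7 was the highest of the 8 for Mcm4, Mcm5, Mcm7 and Cdc6, and tumor 6 for Mcm2, Mcm6, Mcm10 and Gmnn. These values average both dye orientations for tumors 1 to 4 but not for tumors 5 to 8. On first arrays alone, tumor 4 was highest for Mcm5 (1.36) and Cdc6 (0.94), and tumor 2 for Gmnn (0.81). Mcm2, Mcm4, Mcm6, Mcm7 and Mcm10 kept the same highest tumor there. Lymphocyte markers also peaked in tumor 7. The median over 10 of 11 T cell markers tested was 2.88 there, against 0.07 to 0.74 in the other tumors, and over 5 of 8 B cell markers it was 3.54, against 0.10 to 0.44. Trac, Ms4a1, Blk and Pax5 were not kept, and Cd3e and Cr2 had no value in tumor 7. Without tumor 7, 2 licensing genes were called, Mcm2 with a mean of 0.63 and Mcm3 with 0.56, against 4.34% of all genes called higher, and the median of the 10 was 0.35. The loss was not particular to tumor 7. The count was also 2 without tumor 4, against 3.21% of all genes called higher. It was 3 without tumor 2, 3, 5 or 8 (3.98% to 5.59%) and 5 without tumor 1 or tumor 6 (6.11% and 8.69%). The median of the milk protein genes was above the pool in all 8 tumors, at 2.16 to 4.21, and 6 of 7 were called higher. Of the other marker lists, 3 of 6 plasma cell genes and 1 of 9 macrophage genes were called higher, and none of 9 fibroblast, 8 endothelial and 8 adipocyte genes was called by limma. The part of these cell types in the licensing ratios was not tested.

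The 10 genes whose ratios most resembled the mean of Mcm2 to Mcm7 over the 8 tumors were picked by Pearson correlation among 18831 genes. They were Il12rb1 (r = 0.99), Sf3b3 (0.98), ENSMUST00000072916 (0.97), 5730564C23Rik (0.97), Hsd17b7 (0.96), Cul4a (0.96), Nacc1 (0.96), LOC676546 (0.96), Map4k1 (0.95) and Mmab (0.95). With 8 points and that many genes to pick from, such values describe the profile only. Il12rb1, a chain of the interleukin-12 receptor, averaged 0.79 ± 0.52 and was highest in tumors 7 and 6, as was the Mcm2 to Mcm7 mean, at 0.72 and 0.63. Cul4a, a scaffold of the ubiquitin ligase that removes Cdt1 in S phase, followed the profile at a mean of -0.19 ± 0.36.

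Which genes were called depended on the arrays used. With the 8 first arrays only, 6 of the 10 were called, Mcm2, Mcm3, Mcm5, Mcm10, Cdc6 and Cdt1, against 8.33% of all genes called higher. In the fit with the dye included and best-match assignment, Mcm2 (0.79, limma adjusted p = 0.00434) and Mcm3 (0.64, adjusted p = 0.00539) were called, against 3.52% of all genes. The same fit with arrays as labelled called 8, all but Cdc6 and Gmnn, against 9.19% of all genes called higher. The authors' deposited value table gave calls for 4, Mcm2, Mcm3, Mcm5 and Mcm10, against 6.49% of all genes called higher. Mcm2 and Mcm3 were called in each of these fits, and also when any 1 tumor was left out, with means of 0.60 to 0.74 for Mcm2 and 0.52 to 0.57 for Mcm3. Without the first array of tumor 1, Mcm2 averaged 0.70 and Mcm3 0.58. Without the swapped arrays labelled tumors 2 and 4, the means were 0.66 and 0.53, and both genes were called in either case. Without tumors 6 and 7, a setting chosen after seeing the data, limma called 4, against 9.77% of all genes called higher. They were Mcm2 (0.54), Mcm3 (0.59), Mcm10 (0.33) and Cdc6 (0.42). Within 1 slide, limma called none of the 10. On the slide with the first arrays of tumors 1 to 4, Mcm2 averaged 0.47 (adjusted p = 0.0871) and Mcm3 0.42 (adjusted p = 0.132), and on the slide of tumors 5 to 8 they averaged 0.67 (adjusted p = 0.19) and 0.50 (adjusted p = 0.168).

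Around the 10 genes, 113 of 114 listed genes of replication, the G1 to S transition and mitosis were tested. Of these, 24 were called higher and 3 lower, with a median of 0.19 against -0.02 for all genes. Over all genes 6.58% were called higher and 10.6% lower, the shares to set beside each list count below. The origin recognition complex, which sits on the origin before Cdc6 and Cdt1 arrive, had calls in both directions. Of its 6 subunits, Orc1 was higher (0.70 ± 0.24, limma adjusted p = 0.00317), Orc3 was lower (-0.59 ± 0.38, adjusted p = 0.0183), and the median was -0.13. Orc6 averaged -0.19 ± 0.38 and was not called (n = 8 for each).

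Among 13 genes that fire a licensed origin, 4 were higher, none was lower, and the median was 0.35. They were Topbp1 (0.74 ± 0.45), Donson (0.47 ± 0.37), Ticrr (0.41 ± 0.31) and Dbf4, the activator of the Cdc7 kinase (0.42 ± 0.26). Cdc7 itself averaged 0.33 ± 0.41 and was not called. Cdc45, which joins the ring to form the active helicase, averaged 0.14 ± 1.17 with -2.65 in tumor 6, its lowest, and 0.64 at the median. None of the 3 other MCM family genes tested was called, and their median was 0.28.

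At the replication fork, 7 of 25 genes were higher, none was lower, and the median was 0.22. Without tumors 6 and 7 the count higher was 12, against 9.77% of all genes called higher, and the median was 0.29. The largest were Timeless (0.61 ± 0.35), the flap nuclease Fen1 (0.59 ± 0.36), Rpa3 of the single-strand binding complex (0.49 ± 0.21) and the polymerase subunit Pold1 (0.48 ± 0.17). Pcna, the sliding clamp, averaged 0.23 ± 0.14 (limma adjusted p = 0.0877, n = 8) and was above the pool in 8 of 8 tumors. Of 10 genes that turn licensing factors over, Dtl, which directs the Cul4 ligase to Cdt1, was called, at 0.80 ± 0.39 (adjusted p = 0.00624), and the median was 0.05.

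**Figure D4:**
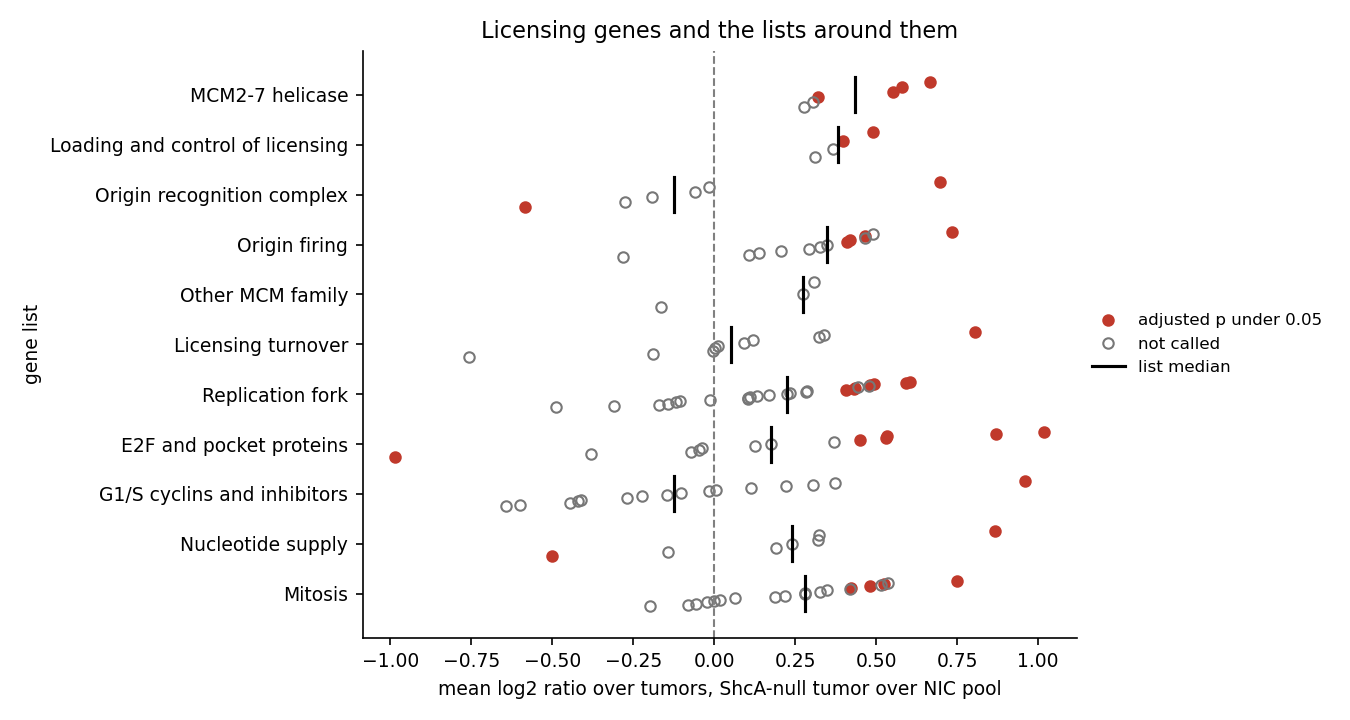
Mean log2 ratio over 8 tumors of ShcA-null tumor over NIC pool (horizontal axis) for each tested gene of the licensing lists and 9 lists around them (vertical axis), with filled points for genes called by limma and a black line at each list's median. The MCM2-7 genes and the loading genes all lie between 0.28 and 0.67. The lists for the origin recognition complex and the G1 to S cyclins have medians below 0. That of the G1 to S cyclins is 0.03 without tumor 6. With median centring and no loess both medians are 0.21, where that of all genes is 0.16.

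Of 13 E2F and pocket protein genes, 5 were higher and 1 lower. E2f4 (1.02 ± 0.52), E2f8 (0.87 ± 0.64), E2f7 (0.53 ± 0.47) and the pocket protein gene Rbl1 (0.53 ± 0.38) were among those higher, and E2f2 was lower (-0.99 ± 0.70). E2f1 averaged 0.37 ± 0.53 and Rb1 0.18 ± 0.75, and neither was called. Among 16 cyclins and inhibitors of the G1 to S step, Cdkn1b, which encodes the inhibitor p27, was called (0.96 ± 0.77, limma adjusted p = 0.0263), and the list's median was -0.12. The sign of that median was not stable. It was 0.03 without tumor 6, whose own list median was -0.85 against -0.07 to 0.34 in the other tumors. With median centring and no loess it was 0.21, where the median of all genes was 0.16. The Cdkn1b call was lost with the first arrays only. Ccne1 averaged 0.30 ± 0.28, Ccne2 -0.45 ± 0.90 with -2.21 in tumor 6, and Cdkn1a 0.22 ± 0.65, none of them called.

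Of 7 nucleotide supply genes, 1 was called higher and 1 lower, with a median of 0.24. Dck, a kinase of nucleotide salvage, was the lower (-0.50 ± 0.39, SD, n = 8, limma adjusted p = 0.0366). Its call was lost with the first arrays only, on the authors' deposited value table, and without tumor 1, 2, 3, 4 or 8. Of 20 mitosis genes, 4 were higher and none lower, with a median of 0.28. They were Kif23 (0.75 ± 0.32), Bub1 (0.52 ± 0.42), Kif20a (0.48 ± 0.38) and Tpx2 (0.42 ± 0.29). The proliferation marker Mki67 averaged 0.00 ± 0.54, 4 tumors on either side of the pool, and Top2a averaged -0.20 ± 1.55 with -3.70 in tumor 6 and a median of 0.58 (SD, n = 8 for each).

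The promoter sequence of 8 of the 10 genes was at hand from RefSeq on GRCm38.p6, as 300 bases running 250 before to 50 after each annotated start, in 9 windows since Mcm7 has 2. They were searched on both strands for the E2F words TTTCCCGC, TTTCGCGC, TTTGCCGC and TTTGGCGC. At least 1 word was found for 6 genes, Mcm3, Mcm5, Mcm6, Mcm7, Cdc6 and Cdt1, and none for Mcm2 and Mcm10. Of all 32851 windows of that length, 2.26% held a word. The counts for each word are of genes, while the shares are of windows. Mcm7 thus had 2 windows in which to match, and the first of them held no E2F word. The CCAAT word was found for 6 of the 8 genes, against 37.4% of all windows, and the word TTTGAA of the CHR element for 1, against 17.9%. Of the windows, 4 are shown, 5′ to 3′ on the strand of the gene, with E2F words in capitals: Mcm2, called in every leave-one-out fit without a word, and 3 subunits with words. Mcm2 is at chr6:88898731-88899030 and Mcm3 at chr1:20820263-20820562, Mcm5 at chr8:75109259-75109558 and Mcm6 at chr1:128359656-128359955, on the minus strand but for Mcm5.
Mcm2: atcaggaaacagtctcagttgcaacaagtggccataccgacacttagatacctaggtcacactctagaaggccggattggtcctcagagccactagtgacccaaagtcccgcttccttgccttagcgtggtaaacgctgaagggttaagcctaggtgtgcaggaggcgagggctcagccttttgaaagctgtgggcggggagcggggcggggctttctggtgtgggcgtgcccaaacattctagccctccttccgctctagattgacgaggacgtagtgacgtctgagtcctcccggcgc
Mcm3: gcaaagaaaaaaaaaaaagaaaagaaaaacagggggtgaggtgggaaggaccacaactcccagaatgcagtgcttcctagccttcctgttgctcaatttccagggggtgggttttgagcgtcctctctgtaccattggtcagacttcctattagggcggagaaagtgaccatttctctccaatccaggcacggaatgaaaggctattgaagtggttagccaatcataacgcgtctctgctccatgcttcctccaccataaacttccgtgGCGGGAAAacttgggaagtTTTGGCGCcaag
Mcm5: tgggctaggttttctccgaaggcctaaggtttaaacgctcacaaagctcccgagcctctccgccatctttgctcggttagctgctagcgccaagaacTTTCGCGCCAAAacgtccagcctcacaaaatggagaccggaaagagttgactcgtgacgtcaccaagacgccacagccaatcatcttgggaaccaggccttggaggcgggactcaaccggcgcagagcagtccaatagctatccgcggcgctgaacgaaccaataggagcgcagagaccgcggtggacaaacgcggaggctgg
Mcm6: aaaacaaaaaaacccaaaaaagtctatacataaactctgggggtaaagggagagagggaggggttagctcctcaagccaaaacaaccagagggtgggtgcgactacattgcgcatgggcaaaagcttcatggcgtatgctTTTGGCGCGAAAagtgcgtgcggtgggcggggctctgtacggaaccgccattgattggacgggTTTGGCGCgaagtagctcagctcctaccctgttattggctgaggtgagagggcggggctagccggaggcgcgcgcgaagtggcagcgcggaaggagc
In Mcm5 (at -153 and -149 from the start) and in Mcm6 (at -110 and -106), words on opposite strands overlap in 1 run of capitals. The genes with a word include those called (Mcm3, Mcm5, Cdt1) and those not called (Mcm6, Mcm7, Cdc6), and Mcm2 and Mcm10 were called without one in the window. The Mcm10 window ends in TTTGGCG, all but the last letter of TTTGGCGC, so a word cut by its edge would have been missed. A match to these letters is a description of the window and says nothing of E2F binding in these tumors.

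**Figure D5:**
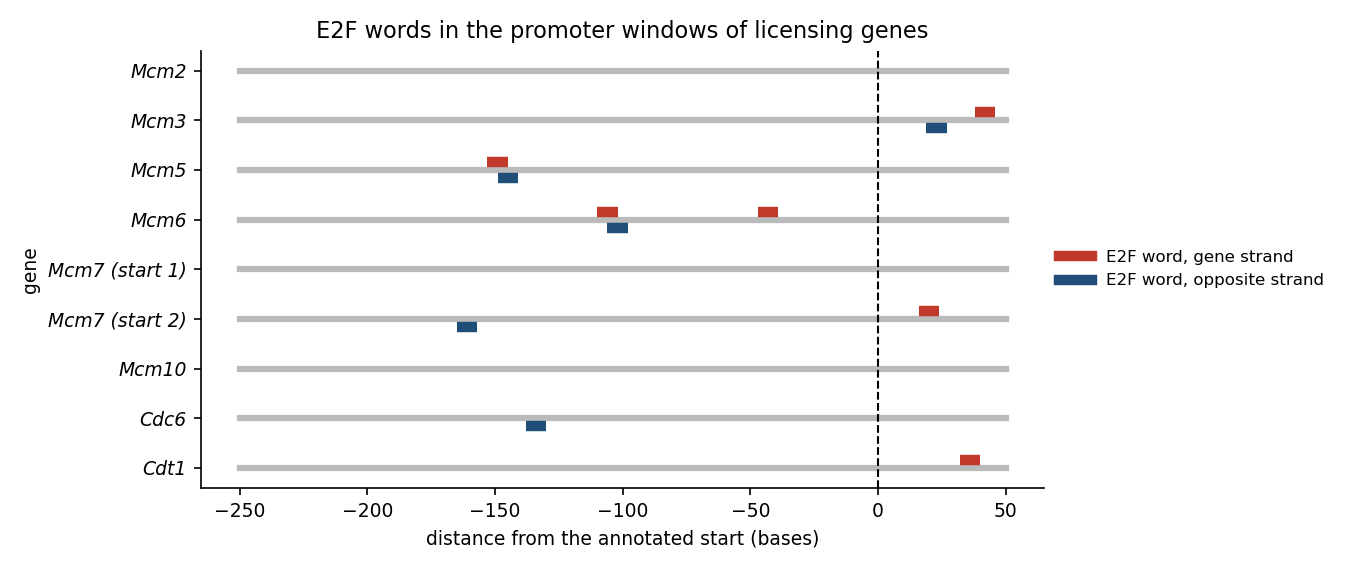
Position of each E2F word relative to the annotated start at 0 (horizontal axis, bases) in the 9 promoter windows of 8 licensing genes (vertical axis), above the line for the gene's strand and below it for the opposite strand. The first bases of the words lie between -165 and 39, and the windows of Mcm2, Mcm10 and the first Mcm7 start hold none.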

How the data were processed

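Total RNA of 8 ShcA-null tumors and of the NIC pool was amplified and hybridised on 12 two-colour arrays. Agilent Feature Extraction 9.5.3.1 had quantified the spots, per the file headers, and probe coordinates are on mm7. The foreground and background intensity of each spot were deposited without normalization. The deposited log10 ratio is red over green of the processed signals, per the file headers, and the deposited flags are other values of 0 or 1 that mark spots as outliers, saturated or well above background. The authors also deposited a log2 value table. Its slope against the scanner ratio was 0.758 to 0.797 on first arrays and -0.748 to -0.715 on swapped arrays, so it runs tumor over pool. Its column medians were 0, 0.00574, -0.0715, -0.00668, -0.0252, 0.137, 0.115 and 0.000792 for first arrays 1 to 8, and -0.0124, -0.0508, -0.00659 and -0.00298 for swapped arrays 1 to 4. Its normalization and centring are not given in the sources used here.

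From the scanner intensities, limma 3.58.1 (R 4.3.3) corrected background by normexp (offset 50) and normalized arrays by loess, giving control spots a weight of 0. Files were read with version 1.17.8 of the R package data.table. Outlier spots were left out. Ratios were turned to tumor over pool, and spots of a probe and then arrays of a tumor were averaged (n = 8). A probe was kept where either RNA was well above background in at least 4 tumors, and the brightest kept probe stood for a gene. Probes were named by accession (22951), symbol (6659) or older symbol (3109) through RefSeq names of GRCm38.p6, and 8455 kept the file's name. The mean was tested against 0 with lmFit and eBayes, adjusted by Benjamini-Hochberg over 20399 genes. The pool was the control RNA, no NIC tumor was hybridised alone, and the test leaves out the control's own spread. The fit was tested on simulated data.

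The licensing genes and all lists were chosen with earlier results of these data known. Named genes were the 10 licensing genes with all their probes. From each list up to 4 called genes with the largest means were named, along with Orc1, Orc6, Cdc45, Cdc7, Dbf4, Pcna, E2f1, Rb1, Ccne1, Ccne2, Cdkn1a, Mki67 and Top2a, Shc1 and Erbb2, and the 10 genes most like the Mcm2 to Mcm7 mean. A gene that this rule takes is not reported here. Erbb2 averaged 0.13 ± 0.68 (SD, n = 8, limma adjusted p = 0.70). Alternatives were 22 planned settings of values, normalization, background, filter, probe choice, dye, slide and left-out tumors, and 3 that were chosen after seeing the data. The number of arrays limits the precision.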

Additional observations from a re-analysis of the deposited data

Results flagged for a closer look

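In 3 cases 1 of 8 tumors lay far from the other 7, with a gap to the nearest of them above Dixon's critical share of the whole range. Chance gives such a gap in about 1 in 20 groups. Cdc6 was -0.46 in tumor 6, and Cdt1 was -0.24 in tumor 1. The other Mcm3 probe, A_52_P364776, was -2.28 in tumor 6. Tumor 6 thus held the extreme value for both genes whose probes disagreed.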

How the results depend on the processing

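Of all genes, 3498 were called over the 8 tumors, 1632 with a dye term and best-match pairing, 927 on the first arrays of tumors 1 to 4 and 8 on those of tumors 5 to 8. Licensing genes called numbered 6, against 2 with Feature Extraction's processed ratios (7.05% of all genes called higher), 2 with the best-match dye term, 7 with slide as a random block (9.31%), and 8 with the dye term as labelled or with no filter on dim probes (4.98%). With tumors 1 to 4 or tumors 5 to 8 alone limma called 0, and 5 of the 10 had an unadjusted p under 0.05 in each set, as did 29.4% of all genes in tumors 1 to 4 and 20.9% in tumors 5 to 8. Genes of the pathway lists called numbered 27, against 2 in tumors 1 to 4 and 0 in tumors 5 to 8, where 22 of 113 (19.5%) had an unadjusted limma p under 0.05. Both sets hold fewer tumors. In tumors 1 to 4 on first arrays Mcm6 averaged -0.0304, and Gmnn minus Cdt1 was 0.0081 (exact p = 1). When each tumor was left out in turn, limma called 1961 to 4539 genes, 2 to 5 licensing genes (2 without tumor 4 or tumor 7; 3 without tumor 2, 3, 5 or 8) and 11 to 37 pathway genes, and Gmnn minus Cdt1 ran between -0.15 and -0.04. The pathway count was 11 without tumor 4, 17 without tumor 3 or 5 and 15 without tumor 7. The cause of these changes was not tested. Centring on the median without loess called 2376 genes higher and 966 lower, against 1342 and 2156, and moved the median of all genes to 0.16, the licensing median to 0.80 and the licensing calls to 8. Gmnn was not called under any of 25 settings, while Mcm2 was called under 23 and Mcm3 under 22. Each of the 10 genes but Mcm6 kept a positive mean under all 25, and Mcm6 did under 24. No paired analysis was possible because the 8 tumors are 1 group and the pool was not hybridised alone.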
